A study of Homo sapiens with 2 samples.

Results

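The TNF receptor superfamily is a group of single-pass membrane proteins, with a few secreted relatives, that bind trimeric ligands related to tumour necrosis factor. The 10 receptors described here were chosen by gene symbol: TNFRSF1A, TNFRSF1B, FAS, CD40, LTBR, TNFRSF10A, TNFRSF10B, TNFRSF11B, TNFRSF12A and TNFRSF21. All 10 symbols were found, each as 1 of the 36601 genes in the deposited matrices, and all 10 passed 1 CPM (counts of unique molecular identifiers, UMIs, scaled by the sum over the library or cell class) in at least 1 arm of each comparison.

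Receptors with a death domain (TNFRSF1A, FAS, TNFRSF10A, TNFRSF10B and TNFRSF21) can recruit adaptors that lead to caspase activation, whereas TNFRSF1B, CD40, LTBR and TNFRSF12A lack that domain and bind TRAF proteins, which feed the NF-κB and MAP kinase pathways. TNFRSF11B, also called osteoprotegerin, is secreted and acts as a decoy that holds ligands away from signalling receptors. In the gut, epithelial cells carry several of these receptors, and antibodies that block TNF are used to treat ulcerative colitis.

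The cells came from colon organoids of 1383D6, an established line of human induced pluripotent stem cells, so the genotype is the same in both groups. The group CNT was left without cytokines, and the group 3CK received TNF-α, IFN-γ and IL-1β together for 8 days, at doses that the labels do not give. TNF-α is itself the ligand of TNFRSF1A and TNFRSF1B, and the 3 cytokines were not added singly. Both groups had been through the same differentiation with activin A, Y-27632 and serum, then FGF2, then embedding in Matrigel with EGF, forskolin, the MEK inhibitor PD98059, the DNA methylation inhibitor 5-aza-2'-deoxycytidine and A-83 (the label text breaks off there), and were dissociated with trypsin for 10x Genomics 3' v3.1 capture. The series title names ulcerative colitis as the disease modelled. Each group is 1 library, so no test between groups was possible; intervals are 95% and cover counting error only, and a change is called by size alone, at 2-fold or more.

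After filtering, 2487 CNT cells held 101831571 UMIs (median 28911 per cell) and 1398 3CK cells held 91860414 UMIs (median 62746), with 0 barcodes shared. Cells with at least 2 EPCAM UMIs per 10000 were taken as epithelial: 1660 in CNT (66.7%) and 1016 in 3CK (72.7%). Cells with at least 5 UMIs per 10000 from COL1A1, COL1A2 and COL3A1 and under 1 from EPCAM were taken as mesenchymal: 574 in CNT (23.1%) and 124 in 3CK (8.87%). Although the labels call the samples colon epithelial cells, the 8 colonocyte and goblet markers summed to only 158 and 78.9 CPM in the epithelial class of CNT and 3CK, 5 of them at 1 CPM or more in each. CA2, at 113 and 38.8 CPM, and KRT20, at 27.4 and 23.4 CPM, made up most of that sum. AQP8 was at 0.07 and 0.11 CPM and MUC2 at 1.04 and 0.64 CPM. Hepatic transcripts were abundant there, with TTR at 64857 and 19491 CPM, so results within TTR ranges are given beside the epithelial ones. The mesenchymal class carried keratin transcripts at levels near those of the epithelial class (KRT8 3217 against 3111 CPM in CNT) while CDH1 was at 14.9 against 138 CPM.

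Summed over all kept cells, the 10 receptors had a median log2 ratio (3CK over CNT) of 1.03, against -0.05 over the 17523 genes that reached 1 CPM. All 10 receptors had a higher CPM in 3CK, as 7999 of the 17523 genes did, and 5 were at least 2-fold higher (CD40, TNFRSF1B, TNFRSF11B, TNFRSF10A and FAS). Among all genes 6.96% were at least 2-fold higher and 11.3% at least 2-fold lower, and 0 of the 10 receptors were 2-fold lower. In epithelial cells the receptor median was 1.19 and the same 5 genes passed 2-fold, beside 8.48% of 16809 genes and an all-gene median of 0.01; 0 receptors were 2-fold lower, beside 12.1% of genes. In mesenchymal cells the receptor median was 0.21, 6 receptors were higher and 4 lower, with the intervals of TNFRSF1A and TNFRSF10A including 0, and 3 passed 2-fold upward (CD40, TNFRSF1B and TNFRSF11B), beside 6.05% of 17353 genes and an all-gene median of -0.21; 0 were 2-fold lower, beside 16.7% of genes.

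**Figure D1:**
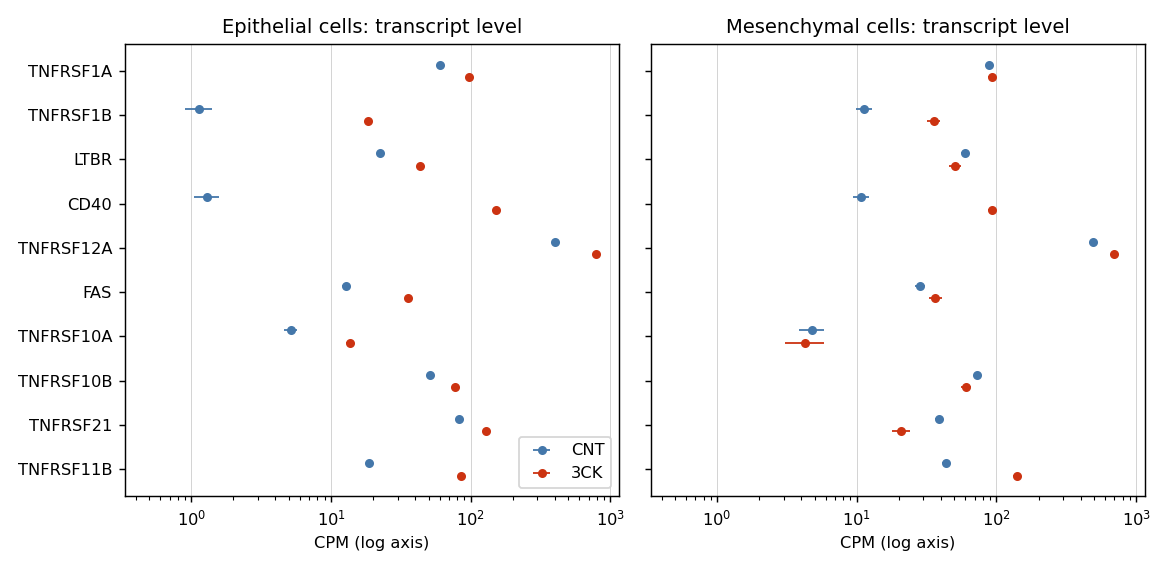
Level of each receptor in CPM (log axis) in epithelial cells (left) and mesenchymal cells (right) of the CNT and 3CK libraries; points are sums over cells and bars are exact 95% Poisson intervals. In epithelial cells CD40 stood at 1.29 and 153 CPM in CNT and 3CK, the widest gap of the 10, and in mesenchymal cells the CNT point lies to the right of the 3CK point for LTBR, TNFRSF10A, TNFRSF10B and TNFRSF21.

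CD40, the receptor through which T cells license antigen-presenting cells and which epithelium can also carry, showed the largest difference of the 10. Its UMIs over all cells numbered 346 in CNT against 12903 in 3CK, or 3.40 and 140 CPM. That is a log2 ratio of 5.37 (5.22 to 5.53), a 41.3-fold difference. In epithelial cells CD40 was at 1.29 CPM (1.04 to 1.57) in CNT and 153 CPM (150 to 156) in 3CK, a log2 ratio of 6.89 (6.61 to 7.20). Mesenchymal cells started higher, at 10.7 CPM, and reached 93.1 CPM, a log2 ratio of 3.12 (2.90 to 3.34). CD40 was thus lower in epithelial than in mesenchymal cells of CNT and higher in those of 3CK, at log2 ratios of -3.06 and 0.72. With TTR-rich epithelial cells only, at 75.6 CPM, the 3CK ratio turned to -0.30.

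The CD40 signal in 3CK was spread over many epithelial cells. Among cells with at least 10000 UMIs the median per-cell level was 105 CPM, the middle 50% of the cells lay between 38.6 and 201 CPM, and the highest cell was at 813 CPM. In CNT the 90th percentile was 0 and the highest cell was at 77.8 CPM. When each cell was thinned to 5000 UMIs, 42.1% of epithelial cells in 3CK had a CD40 UMI (38.6 to 45.7), against 0.377% in CNT (0.103 to 0.962). The unthinned shares were 69.5% and 3.55%, at median depths of 72198 and 37785 UMIs. Mesenchymal shares after thinning were 32.7% in 3CK and 5.94% in CNT.

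TNFRSF1B, the second TNF receptor, is best known from leukocytes and endothelium and is activated mainly by membrane-bound TNF. Its level over all cells was 3.31 and 22.2 CPM in CNT and 3CK, a log2 ratio of 2.74 (2.58 to 2.91). The epithelial level went from 1.13 CPM (0.903 to 1.39) to 18.5 CPM (17.5 to 19.5), a log2 ratio of 4.04 (3.72 to 4.37). Mesenchymal cells were higher in both libraries, at 11.3 and 35.4 CPM, with a log2 ratio of 1.65 (1.40 to 1.90). The share of epithelial cells with a UMI at 5000 UMIs was 7.60% in 3CK and 0.377% in CNT (37.6% and 3.61% unthinned). At that depth the TNFRSF1B share of 3CK epithelial cells (5.84 to 9.70) was thus far below that of CD40.

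The CNT values of CD40 and TNFRSF1B in epithelial cells lie within what transcripts of mesenchymal cells showed there. Across 11 mesenchymal markers not used to define the classes, the epithelial level was 2.92% to 28.3% of the mesenchymal level in CNT (median 7.37%) and 0.357% to 23.0% in 3CK (median 4.94%). CD40 stood at 12.0% and TNFRSF1B at 9.99% of their mesenchymal levels in CNT, inside that range, and at 164% and 52.3% in 3CK, outside it. The other 8 receptors stood at 38.1% to 214% in CNT, above the range. DCN, a fibroblast matrix gene, was detected in 9.42% of thinned CNT epithelial cells and 2.58% of those in 3CK, and in 86.6% and 85.0% of mesenchymal cells. Whether the few CD40 and TNFRSF1B UMIs of CNT epithelium came from epithelial cells was not tested. Of the CNT epithelial class, 497 cells also carried collagens above the mesenchymal boundary, at a median of 1087 UMIs, against 49 in 3CK.

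The first TNF receptor, TNFRSF1A, is found on most cell types and triggers both NF-κB signalling and cell death. It was at 66.1 and 94.9 CPM in CNT and 3CK over all cells, a log2 ratio of 0.52 (0.48 to 0.57). Epithelial cells went from 60.6 CPM to 97.5 CPM, with a log2 ratio of 0.69 (0.63 to 0.74). In mesenchymal cells the levels were 88.8 and 93.4 CPM, and the interval of the log2 ratio, 0.07, included 0 (-0.05 to 0.19). After thinning, 25.5% of epithelial cells in CNT and 40.2% in 3CK had a UMI. Of the pair that binds TNF, TNFRSF1A thus stayed under 2-fold in both classes and TNFRSF1B was past it in both. The counts do not separate membrane-bound from soluble forms of either receptor.

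Promoters of 5 of the 10 receptors were taken from the RefSeq table (GRCh38.p14), 7 promoters in all, of TNFRSF1A, TNFRSF1B, FAS, LTBR and TNFRSF21. Those of CD40, TNFRSF10A, TNFRSF10B, TNFRSF11B and TNFRSF12A were not searched, which does not say that the table lacks them. For the pair of TNF receptors, and for FAS, the 250 bases before a transcription start are printed below 5' to 3'. TNFRSF1B lies at chr1:12166991-12209220, TNFRSF1A at chr12:6328771-6342076 and FAS at chr10:88964050-89017059, and the windows are chr1:12166741-12166990 (plus strand), chr12:6342077-6342326 (minus strand) and chr10:88991181-88991430 (plus strand, 1 of 3 FAS starts in the table). Capitals mark a match to a searched motif.
TNFRSF1B: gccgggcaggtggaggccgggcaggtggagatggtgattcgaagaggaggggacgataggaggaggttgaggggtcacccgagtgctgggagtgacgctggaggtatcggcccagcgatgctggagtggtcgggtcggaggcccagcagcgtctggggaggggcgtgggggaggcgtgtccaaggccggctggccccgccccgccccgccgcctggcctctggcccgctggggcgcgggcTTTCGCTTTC
TNFRSF1A: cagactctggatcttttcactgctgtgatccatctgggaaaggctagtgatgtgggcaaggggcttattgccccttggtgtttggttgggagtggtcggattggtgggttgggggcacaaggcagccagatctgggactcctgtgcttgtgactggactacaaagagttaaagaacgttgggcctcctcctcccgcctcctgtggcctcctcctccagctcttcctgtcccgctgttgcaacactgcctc
FAS: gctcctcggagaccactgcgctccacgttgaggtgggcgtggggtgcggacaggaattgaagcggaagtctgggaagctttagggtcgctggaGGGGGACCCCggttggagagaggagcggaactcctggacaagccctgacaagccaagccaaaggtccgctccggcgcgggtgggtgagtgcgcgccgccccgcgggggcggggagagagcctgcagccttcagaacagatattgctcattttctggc

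The motifs were searched on both strands of the whole 300-base promoters (250 bases before and 50 after the start): the gamma-activated site TTCNNNGAA, the core of the interferon-stimulated response element TTTCNNTTTC, and the NF-κB and AP-1 consensus sequences. TNFRSF1B had the interferon-stimulated core TTTCGCTTTC at bases 241 to 250, directly before its start, a motif held by 3.57% of all 35116 promoters. FAS had an NF-κB consensus match, GGGGGACCCC, at bases 94 to 103 of the printed window, a motif held by 5.91% of promoters. The gamma-activated site and AP-1 were held by 7.66% and 4.95% of promoters. No match was found in the other FAS promoters or in those of TNFRSF1A, LTBR and TNFRSF21. This says only that these letters are not in them. Whether matches were more frequent than in other promoters, or bear on the level of a receptor, was not tested.

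LTBR, the lymphotoxin beta receptor, binds the membrane-bound lymphotoxin heterotrimer and drives non-canonical NF-κB signalling. It lies beside TNFRSF1A on chromosome 12 (chr12:6375160-6391566), 33083 bases away. Over all cells it was at 30.1 and 44.5 CPM in CNT and 3CK, a log2 ratio of 0.56 (0.50 to 0.63). Epithelial cells went from 22.6 CPM to 43.6 CPM, with a log2 ratio of 0.95 (0.86 to 1.04) that lies just under 2-fold. Mesenchymal cells were at 59.3 and 50.6 CPM in CNT and 3CK, a log2 ratio of -0.23 (-0.39 to -0.07), close to the all-gene median of -0.21 in that class. With TMM factors (a scaling that trims extreme genes) that all-gene median was -0.03 and the LTBR ratio -0.05. In CNT, LTBR was higher in mesenchymal than in epithelial cells, at an epithelial to mesenchymal log2 ratio of -1.39 (-1.50 to -1.29); in 3CK the ratio was -0.21 (-0.35 to -0.07), which turned to 0.15 without mesenchymal cells that had a UMI of the myeloid gene TYROBP.

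TNFRSF12A, also called Fn14, is the receptor of the cytokine TWEAK and is known as a gene of injured and regenerating epithelium. It was at 416 and 762 CPM in CNT and 3CK over all cells, a log2 ratio of 0.87 (0.86 to 0.89). Epithelial levels were 405 and 790 CPM, a log2 ratio of 0.96 (0.94 to 0.98), again just under 2-fold. Mesenchymal levels were 493 and 691 CPM, a log2 ratio of 0.49 (0.44 to 0.53). It was detected in 62.3% of thinned epithelial cells in CNT and 86.7% in 3CK, and in 67.2% and 91.6% of mesenchymal cells. At the level of single cells with at least 10000 UMIs, the lower quartile of epithelial cells was 83.7 in CNT and 321 CPM in 3CK, and the highest cell was at 2599 and 2933 CPM, so the low end of the distribution differed more than its top. In CNT its epithelial to mesenchymal log2 ratio was -0.28, which TMM factors turned to 0.10 and leaving out TYROBP-positive mesenchymal cells to 0.047.

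**Figure D2:**
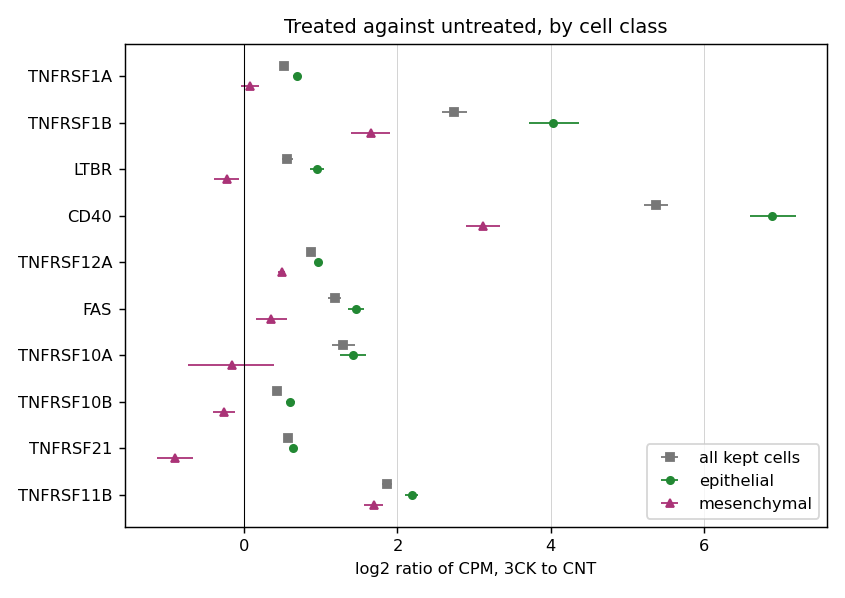
Log2 ratio of CPM, 3CK to CNT, for each receptor in all kept cells (squares), epithelial cells (circles) and mesenchymal cells (triangles), with 95% counting intervals; the vertical line marks no difference. The epithelial point lies to the right of the mesenchymal point for all 10 receptors, from 0.48 apart for TNFRSF12A to 3.78 for CD40.

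FAS, the receptor of FAS ligand and a classical inducer of apoptosis, was at 16.0 and 36.3 CPM in CNT and 3CK over all cells, a log2 ratio of 1.18 (1.10 to 1.27). In epithelial cells it went from 12.9 CPM to 35.4 CPM, with a log2 ratio of 1.46 (1.35 to 1.57). Mesenchymal cells were at 28.6 and 36.5 CPM, a log2 ratio of 0.36 (0.16 to 0.55). FAS was thus lower in epithelial than in mesenchymal cells of CNT, at a log2 ratio of -1.15, while in 3CK the interval of that ratio, -0.05, included 0 (-0.21 to 0.12). The share of thinned epithelial cells with a UMI was 5.37% in CNT and 13.7% in 3CK. An exon of FAS overlaps an exon of STAMBPL1 on the same strand, so reads there could belong to either gene.

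TNFRSF10A and TNFRSF10B, the death receptors of TRAIL, differed in level and in ratio. TNFRSF10A was at 5.27 and 12.9 CPM in CNT and 3CK over all cells, a log2 ratio of 1.29 (1.14 to 1.44). Its epithelial levels were 5.13 and 13.7 CPM, a log2 ratio of 1.42 (1.25 to 1.59). Its mesenchymal levels, 4.78 and 4.28 CPM, rest on 94 and 39 UMIs, and the interval of their log2 ratio of -0.16 included 0 (-0.74 to 0.39). In 3CK this made TNFRSF10A 3.21-fold higher in epithelial than in mesenchymal cells, whereas in CNT the ratio was 1.07. Without mesenchymal cells that had a UMI of TYROBP, a myeloid gene, the mesenchymal level of TNFRSF10A in 3CK was 7.22 CPM, from 15 UMIs, and the epithelial to mesenchymal log2 ratio was 0.93 in place of 1.68.

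TNFRSF10B was at 58.3 and 78.6 CPM in CNT and 3CK over all cells, the smallest log2 ratio of the 10 at 0.43 (0.38 to 0.48). Epithelial levels were 51.0 and 77.5 CPM, a log2 ratio of 0.60 (0.54 to 0.66). Mesenchymal levels were 72.7 and 60.8 CPM, a log2 ratio of -0.26 (-0.40 to -0.12) that is again close to the all-gene median of the class, and -0.08 with TMM factors. Without the TYROBP-positive mesenchymal cells the ratio was 0.070. TNFRSF10A and TNFRSF10B are related in sequence to each other and to the decoys TNFRSF10C and TNFRSF10D, so how reads were divided among these 4 genes is uncertain.

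TNFRSF21, also called death receptor 6, was the receptor most skewed towards epithelial cells. Over all cells it was at 78.1 and 116 CPM in CNT and 3CK, a log2 ratio of 0.56 (0.52 to 0.61). In epithelial cells it was at 83.1 and 130 CPM, a log2 ratio of 0.64 (0.60 to 0.69). In mesenchymal cells it was at 38.8 and 20.7 CPM, a log2 ratio of -0.91 (-1.14 to -0.67), below the all-gene median of -0.21 but short of 2-fold. TNFRSF21 was 2.14-fold higher in epithelial than in mesenchymal cells in CNT and 6.26-fold higher in 3CK, the largest such ratio among the 10 in either library.

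The mesenchymal value of TNFRSF21 depended on which cells were counted. Without TYROBP-positive cells the levels were 41.3 and 36.6 CPM and the log2 ratio was -0.18, and the epithelial to mesenchymal log2 ratio in 3CK was 1.83 in place of 2.65. With equal weight for each cell of at least 5000 UMIs, shallower cells left out, the mesenchymal ratio was -0.41. With stricter class boundaries it was -0.57. The shares of thinned mesenchymal cells with a UMI, 13.1% in CNT (9.63 to 17.3) and 10.3% in 3CK (5.24 to 17.7), overlapped in their intervals. In CNT, the richest 10% of the mesenchymal cells held 77.3% of its UMIs. This value depends on how many cells had a UMI at all, so it does not by itself show concentration in few cells.

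TNFRSF11B, osteoprotegerin, the secreted decoy that binds RANKL and TRAIL, was at 23.7 and 86.0 CPM in CNT and 3CK over all cells, a log2 ratio of 1.86 (1.80 to 1.93). Epithelial levels were 18.9 and 85.6 CPM, a log2 ratio of 2.18 (2.10 to 2.27). Mesenchymal levels were 43.3 and 140 CPM, a log2 ratio of 1.69 (1.56 to 1.81). It thus passed 2-fold in both classes and was higher in mesenchymal cells in both libraries.

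TNFRSF11B was unevenly spread over cells. Among mesenchymal cells of 3CK, without thinning, the richest 10% held 67.2% of its UMIs and the richest cell had 246 UMIs. The share of thinned mesenchymal cells with a UMI was 18.4% in CNT and 21.5% in 3CK, intervals that overlap, although the summed level was 3.22-fold higher. In thinned epithelial cells the share was 8.85% in CNT and 25% in 3CK. Without thinning, the richest 10% of the epithelial cells held 74.3% (CNT) and 60.4% (3CK) of the UMIs, values that also depend on how depth varied between cells. Per-cell values in 3CK reached 1580 CPM in epithelial and 3117 CPM in mesenchymal cells, at medians of 35.8 and 36.5 CPM.

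**Figure D3:**
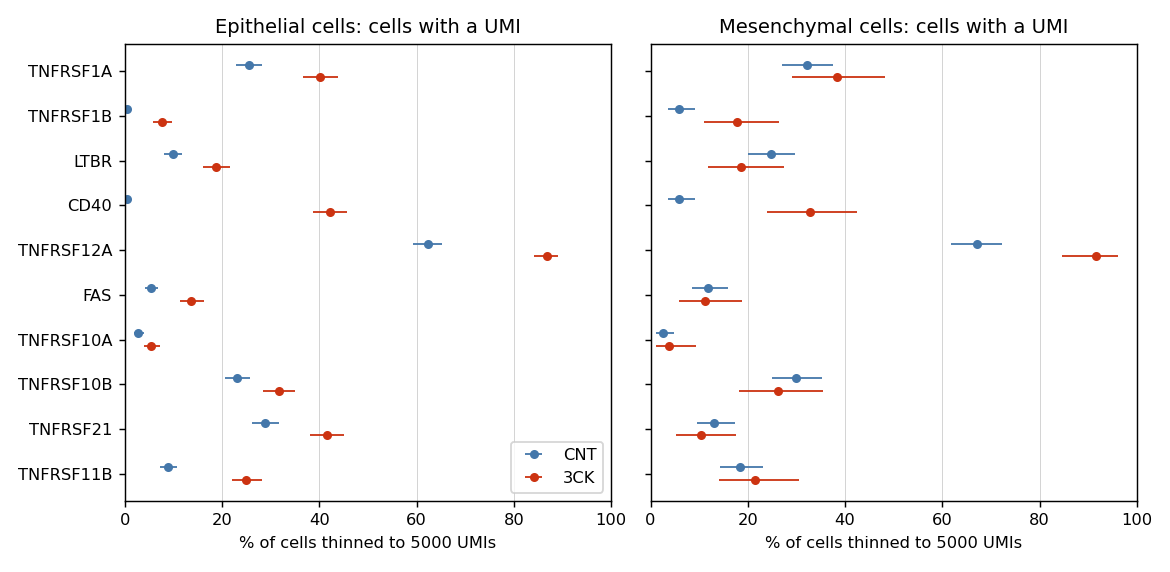
Percent of cells with at least 1 UMI of each receptor after thinning every cell to 5000 UMIs, in epithelial (left) and mesenchymal cells (right) of CNT and 3CK, with exact 95% binomial intervals. In epithelial cells (1062 in CNT and 776 in 3CK) the share was higher in 3CK for all 10 receptors, from 0.377% to 42.1% for CD40. The mesenchymal intervals rest on fewer cells (320 and 107), and those of FAS, LTBR, TNFRSF10A, TNFRSF10B, TNFRSF11B, TNFRSF1A and TNFRSF21 overlap.

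Thinning used 1062 of the CNT and 776 of the 3CK epithelial cells, leaving out 598 and 240 shallower ones, and 320 and 107 mesenchymal cells, leaving out 254 and 17. At 10000 UMIs per cell the median number of the 10 receptors detected in 1 cell was 2 in CNT epithelium and 4 in 3CK epithelium. The share of epithelial cells with at least 5 of the receptors was 6.42% in CNT and 48.8% in 3CK. For mesenchymal cells the medians were 3 and 4, and the shares with at least 5 were 12.9% and 34.0%. At equal depth more of the 10 receptors were thus detected per cell in 3CK in both classes. The number of all genes detected per cell at that depth was not compared. Whether receptors shared cells beyond what their single shares give was not tested.

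In CNT the receptors as a set were lower in epithelial than in mesenchymal cells. The median epithelial to mesenchymal log2 ratio was -0.85, against -0.32 over 18033 genes; 8 receptors were lower, 5 of them by 2-fold or more (CD40, TNFRSF1B, LTBR, TNFRSF11B and FAS), and TNFRSF21 alone was 2-fold higher. Among all genes 11469 of 18033 were lower, 26.1% were 2-fold lower and 15.1% 2-fold higher. In 3CK the median was 0.13, against -0.07 over 17177 genes, 0 receptors were 2-fold lower (19% of all genes) and 2 were 2-fold higher, TNFRSF21 and TNFRSF10A (16.8% of all genes). Without TYROBP-positive mesenchymal cells the 2 that were 2-fold higher in 3CK were TNFRSF21, at a log2 ratio of 1.83, and CD40, at 1.20; TNFRSF10A was at 0.93 and TNFRSF11B, at -1.18, was 2-fold lower. With TTR-rich epithelial cells only, the 3CK median was -0.39, TNFRSF10A was at 0.17, and TNFRSF21 in CNT was at 0.78, under 2-fold.

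The difference between the epithelial and the mesenchymal log2 ratio of 3CK to CNT was above 0 for all 10 receptors, and at least 1 for 6 of them, a size that 15.7% of 15456 genes reached and 6.13% reached in the other direction. How many of all genes had a difference above 0 was not counted. The all-gene medians, 0.01 in epithelial and -0.21 in mesenchymal cells, lay in the same order. The largest differences were CD40 at 3.78 (3.42 to 4.14), TNFRSF1B at 2.39 (1.99 to 2.79), TNFRSF10A at 1.58 (1.02 to 2.15) and TNFRSF21 at 1.55 (1.31 to 1.78). LTBR and FAS followed at 1.18 and 1.10. The number at 1 or more was 3 in TTR-rich cells (CD40, FAS and TNFRSF21), 3 in TTR-poor cells (CD40, TNFRSF1B and TNFRSF21) and 3 without TYROBP-positive mesenchymal cells (CD40, TNFRSF1B and LTBR). The smallest were TNFRSF11B at 0.50 and TNFRSF12A at 0.48. The TNFRSF11B difference turned to -0.18 in epithelial cells rich in TTR and to -0.11 without TYROBP-positive mesenchymal cells. LTBR, TNFRSF10B and TNFRSF21 had ratios of opposite sign in the classes with both intervals clear of 0, as 14.8% of genes did. These differences were not tested, since each class of each group comes from 1 library.

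The sum of 7 leukocyte markers was higher in 3CK than in CNT in every class. It was 42.0 and 55.9 CPM in epithelial cells, and 29.3 and 110 CPM in the cells of neither class. In mesenchymal cells it was 67.8 and 195 CPM, with MS4A1 at 0 in both and CD3E at 0 in 3CK. There TYROBP was at 27.1 and 87.9 CPM in CNT and 3CK, CD68 at 26.7 and 91.4 CPM, PTPRC at 0.56 and 3.62 CPM and CSF1R at 0.31 and 0.44 CPM. The listed genes other than TYROBP, CD68 and PTPRC, CD14 among them, were together not higher in 3CK. Of the mesenchymal cells 112 of 574 in CNT and 75 of 124 in 3CK had a TYROBP UMI, a count that depends on depth. PTPRC was at 0.233 CPM in those cells of CNT and at 0.813 CPM in the others, from 2 and 9 UMIs. In 3CK the values were 4.55 and 0.481 CPM. Without the TYROBP-positive cells TNFRSF1B was at 12.4 and 31.8 CPM, CD40 at 7.50 and 66.4 CPM and TNFRSF11B at 39.7 and 194 CPM, so these 3 receptors remained at least 2-fold higher in 3CK.

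The cells in neither class, 253 in CNT and 258 in 3CK, gave a further view of the receptors. Their median log2 ratio there was 0.91, beside -0.22 over 19483 genes, with 8 receptors higher and 2 lower (the interval of TNFRSF10B included 0). CD40, TNFRSF1B, FAS, TNFRSF11B and TNFRSF12A were at least 2-fold higher, beside 9.18% of all genes, and 0 were 2-fold lower, beside 19.7%. CD40 had 37 UMIs in CNT and 1326 in 3CK, 6.16 against 105 CPM. TNFRSF21 was lower, as in the mesenchymal class, at 142 and 105 CPM with a log2 ratio of -0.44 (-0.57 to -0.32).

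The epithelial cells of the libraries also differed in TTR level. Cells with TTR at 500 or more UMIs per 10000 numbered 620 in CNT and 82 in 3CK, and cells under 100 numbered 192 and 502. These ranges are cut on TTR itself. Whether the cell types or the TTR level per cell differed was not tested. All 10 receptors were lower in TTR-rich than in TTR-poor cells of the same library, as were 15039 of 18063 genes in CNT and 13471 of 16739 in 3CK. The receptor median log2 ratio was -0.88 in CNT and -0.94 in 3CK, beside all-gene medians of -0.79 and -0.71. The intervals of TNFRSF1B in CNT and TNFRSF1A in 3CK included 0. By 2-fold, 3 receptors were lower in TTR-rich cells of CNT (CD40, FAS and TNFRSF10A, beside 41.4% of all genes) and 0 higher (2.5% of genes). In 3CK 5 were lower (CD40, TNFRSF1B, TNFRSF10A, TNFRSF10B and TNFRSF11B, beside 38.6%) and 0 higher (3.68%).

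Within each TTR range all 10 receptors again had a higher CPM in 3CK, beside 5504 of 15559 genes in TTR-rich and 5974 of 18384 in TTR-poor cells. In TTR-rich cells, however, the intervals of TNFRSF10A (-0.11 to 1.11) and TNFRSF10B (-0.08 to 0.30) included 0. The median log2 ratio was 0.75 in TTR-rich cells, where CD40, TNFRSF1B, TNFRSF11B and FAS passed 2-fold (5.5% of all genes did, and 14.1% were 2-fold lower), and 0.62 in TTR-poor cells, where CD40, TNFRSF1B and TNFRSF11B did (5.79% of all genes, with 18.8% 2-fold lower). CD40 was at 0.785 and 75.6 CPM in CNT and 3CK in TTR-rich cells, a log2 ratio of 6.59. In TTR-poor cells CD40 was at 2.13 and 155 CPM, a log2 ratio of 6.19. TNFRSF10A, by contrast, had a log2 ratio of 0.52 in TTR-rich and 0.64 in TTR-poor cells, against 1.42 over the whole class, and TNFRSF10B one of 0.11 and 0.48 against 0.60.

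**Figure D4:**
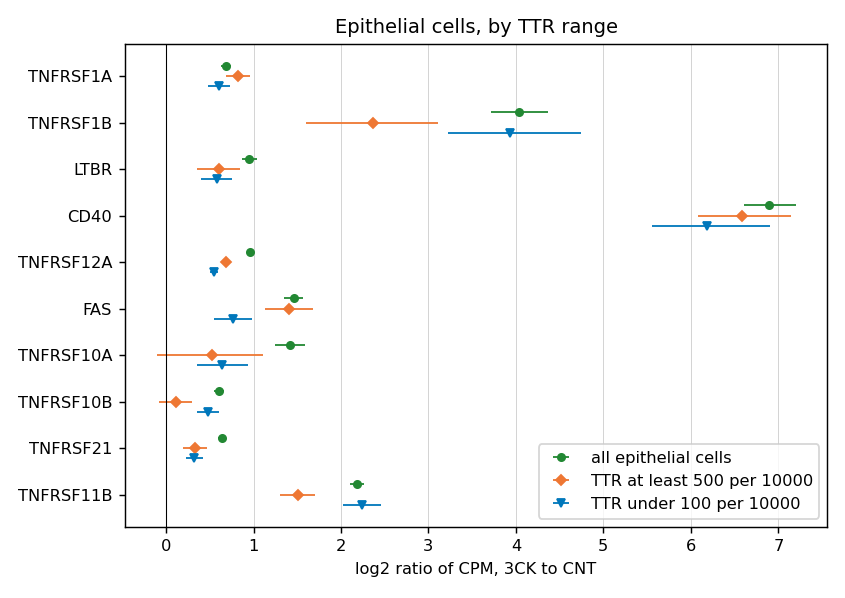
Log2 ratio of CPM, 3CK to CNT, in all epithelial cells (circles), cells with TTR at least 500 UMIs per 10000 (diamonds) and cells with TTR under 100 (triangles), with 95% counting intervals. All points lie right of 0, with the intervals of TNFRSF10A and TNFRSF10B in TTR-rich cells crossing it, and for every receptor but TNFRSF1A and TNFRSF11B both TTR ranges lie left of the whole class.

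The ligands of these receptors were read from a list of 18 ligand genes, of which 13 passed 1 CPM. Over all cells 11 of the 13 were higher in 3CK and 7 at least 2-fold higher, beside the 6.96% of all genes, and their median log2 ratio was 1.31. TNFSF10, which encodes TRAIL, the ligand of TNFRSF10A, TNFRSF10B and TNFRSF11B, was at 9.66 CPM in CNT but 366 CPM in 3CK, and the log2 ratio was 5.24 (5.15 to 5.34). The thinned share of epithelial cells with a TNFSF10 UMI was 5.27% in CNT and 60.3% in 3CK. The TRAIL ligand thus differed far more than its 2 death receptors.

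TNF itself was at 0.874 and 13.8 CPM in CNT and 3CK, a log2 ratio of 3.98 (3.67 to 4.31). The lymphotoxin genes LTA and LTB, whose products form the LTBR ligand, were at 0.21 and 3.24 CPM and at 28.8 and 127 CPM. LTB was mainly epithelial, at 161 CPM in epithelial and 3.29 CPM in mesenchymal cells of 3CK. TNFSF12, which encodes TWEAK, the ligand of TNFRSF12A, was lower in 3CK, at 12.2 and 7.29 CPM, a log2 ratio of -0.74 that is short of 2-fold. In epithelial cells TNFSF12 passed 2-fold, at 13.9 and 6.90 CPM (-1.01), and in mesenchymal cells it was at 6.62 and 8.67 CPM, where the interval of the log2 ratio of 0.39 included 0 (-0.03 to 0.80). Its exons overlap those of the readthrough gene TNFSF12-TNFSF13.

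The partner ligands of FAS and CD40 were near or at 0. FASLG had only 2 and 6 UMIs, and CD40LG had 0 UMIs in both libraries, for which the limit used here is 3 UMIs, or 0.0295 and 0.0327 CPM. TNFSF13B, which encodes the B cell factor BAFF, had a log2 ratio of 3.61. TNFSF9, the ligand of TNFRSF9, was at 12.7 and 23.2 CPM, short of 2-fold over all cells, and at 19.5 and 40.9 CPM in mesenchymal cells, where it passed 2-fold. EDA, the ectodysplasin ligand, was at 46.1 and 59.2 CPM over all cells. The classes differed in direction for EDA, with 40.7 and 54.3 CPM in epithelial cells and 29.3 and 8.67 CPM in mesenchymal cells, a log2 ratio of -1.76 in the latter.

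Of 19 other receptors of the superfamily, 11 passed 1 CPM, 8 were higher in 3CK and 5 at least 2-fold higher, at a median log2 ratio of 0.89; of all 17523 genes 7999 were higher and 6.96% at least 2-fold higher. In mesenchymal cells 12 passed 1 CPM, with 6 higher and 6 lower and a median of -0.05. There 3 were at least 2-fold higher and 5 at least 2-fold lower, beside 6.05% and 16.7% of all genes. TNFRSF14, the herpesvirus entry mediator, went from 2.63 to 20.7 CPM, TNFRSF9 (4-1BB) from 3.24 to 12.6 CPM and the death receptor TNFRSF25 from 4.33 to 16.2 CPM. The TRAIL decoys TNFRSF10C and TNFRSF10D were lower in 3CK, at log2 ratios of -0.39 and -0.75, and so was EDA2R at -0.56, each short of 2-fold over all cells. In mesenchymal cells all 3 were past 2-fold lower, TNFRSF10C at -1.16, TNFRSF10D at -1.46 and EDA2R at -1.20, whereas in epithelial cells the ratios were -0.18, -0.73 and -0.36. The other TRAIL binders among the 10 receptors, TNFRSF10A, TNFRSF10B and TNFRSF11B, were higher over all cells and in epithelial cells. In mesenchymal cells only TNFRSF11B was higher, at 1.69. There TNFRSF10B was at -0.26 (-0.40 to -0.12), and the interval of TNFRSF10A, at -0.16, included 0.

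**Figure D5:**
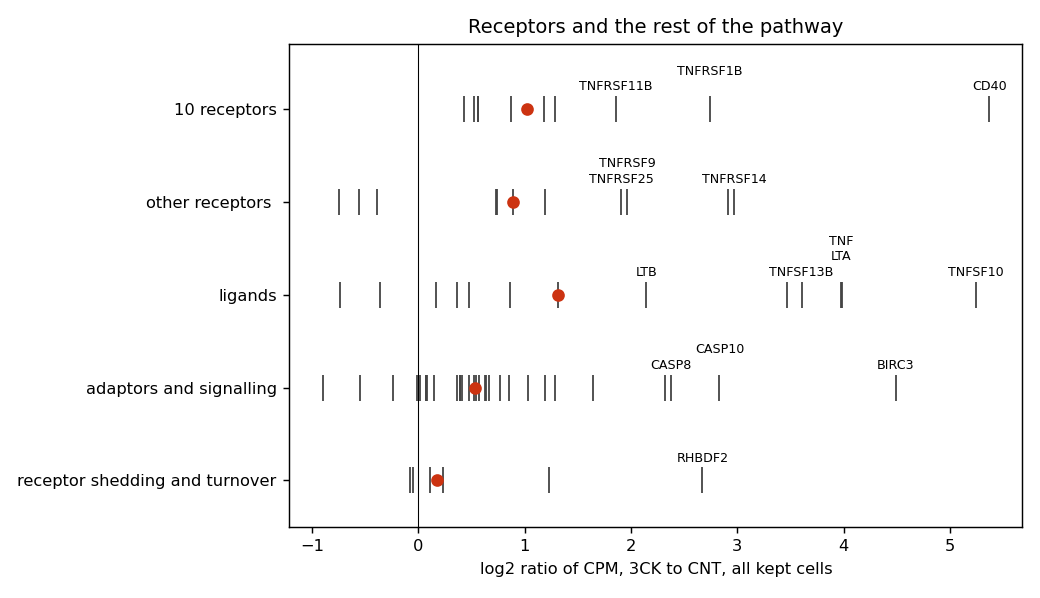
Log2 ratio of CPM, 3CK to CNT, over all kept cells for every gene with at least 1 CPM in 5 lists; each tick is a gene, the filled circle is the list median, and names mark genes described in the text. The 10 receptors all lie right of 0 with a median of 1.03, while the shedding list has a median of 0.17.

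Downstream, 30 adaptor and signalling genes all passed 1 CPM, with a median log2 ratio of 0.54, 26 higher and 8 at least 2-fold higher, beside 6.96% of all genes. BIRC3, a ubiquitin ligase of TNF receptor complexes and an NF-κB target, went from 6.59 CPM to 148 CPM, with a log2 ratio of 4.49 (4.38 to 4.61). CASP8, the initiator caspase below the death receptors, went from 10.6 to 55.0 CPM and its relative CASP10 from 6.02 to 42.9 CPM. TAB3, NSMAF and BAG4, an NF-κB cofactor, an adaptor of TNFRSF1A and a silencer of death domains, had log2 ratios of -0.90, -0.55 and -0.24.

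Of 6 genes of receptor shedding and turnover, 2 were at least 2-fold higher and 0 lower, beside 6.96% and 11.3% of all genes: RHBDF2, a cofactor of the sheddase ADAM17, at 5.38 and 34.3 CPM, and ERAP1, reported to promote shedding of TNFRSF1A, at 9.27 and 21.8 CPM. ADAM17, the protease that cleaves TNF and its receptors, was at 28.3 and 33.3 CPM, and ADAM10 at 103 and 97.6 CPM. RHBDF1 and the inhibitor TIMP3 had log2 ratios of 0.11 and -0.05. The signs of ADAM10 and TIMP3 turned with TMM factors, to 0.00740 and 0.042.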

How the data were processed

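The authors deposited raw UMI counts for every gene in every barcode, made with Cell Ranger 7.1.0 and GRCh38 per the submitters' processing notes; which annotation was used and whether intronic reads were counted is not given in the sources used here. Barcodes with at least 500 genes and at most 20% mitochondrial UMIs were kept, which removed 412 and 52 barcodes for few genes and 306 and 175 for mitochondrial share in CNT and 3CK. Scrublet in scanpy 1.11.5 scored doublets, and the top 0.8% per 1000 barcodes were removed (52 and 16). UMIs were summed per library and class and scaled to CPM by the total; 3 UMIs are 0.0295 CPM in CNT and 0.0327 CPM in 3CK over all cells. Sums have exact Poisson, ratios exact binomial and shares Clopper-Pearson intervals, and the interval of a difference of 2 log2 ratios combines both. Genes with at least 1 CPM in either arm entered the counts. PCR and capture effects are outside these intervals. The ratio calculation was tested on simulated counts.

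The 10 receptors and the pathway and marker lists were chosen with earlier results of these data known. All 145 list symbols were found. All 10 receptors are named; from each other list up to 3 genes with the largest and up to 3 with the smallest ratio among those that reach 10 CPM in 1 library are named, plus TNF, TNFSF10, FASLG, CD40LG, LTA and LTB. Epithelial, hepatic, colonocyte and mesenchymal markers and the TTR ranges checked the classes; the sum of 5 endothelial markers was 20.7 and 27.8 CPM in the epithelial class and 36.0 and 14.8 CPM in the mesenchymal class, of 4 neural markers 21.8 and 59.6 CPM and 34.1 and 15.6 CPM, and of 5 cycling markers 48.0 and 61.6 CPM and 192 and 291 CPM, in CNT and 3CK. Promoters and gene positions came from RefSeq (GRCh38.p14), and exon overlaps from GENCODE. Alternatives changed the cell filter, doublets, depth, weighting, scaling (TMM from edgeR 4.0.16, or a subset total), gene filter and class boundaries; those by TTR, TYROBP and collagen-carrying epithelial cells were chosen after seeing the data.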

Additional observations from a re-analysis of the deposited data

Results flagged for a closer look

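For 3 receptors the ratio of 3CK to CNT pointed up in epithelial cells and down in mesenchymal cells, with counting intervals on either side of 0, as it did for 14.8% of 15456 genes. The epithelial minus mesenchymal log2 ratio was 1.18 for LTBR, 0.86 for TNFRSF10B and 1.55 for TNFRSF21. The difference was not tested, since each group is 1 library. The mesenchymal ratios of LTBR and TNFRSF10B were near the all-gene median of that class, and the part of TYROBP-positive cells in the TNFRSF21 value was measured only by leaving them out, which gave a difference of 0.82.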

How the results depend on the processing

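Summary values are grouped by setting; the cause of each shift was not tested. TMM factors gave receptor medians of 1.11 (all cells), -0.47 with 3 receptors 2-fold lower (CNT, epithelial against mesenchymal) and 0.30 (3CK, same), and turned ADAM10 to 0.00740, TIMP3 to 0.042 and the CNT class ratio of TNFRSF12A to 0.10. TMM moved the all-gene median of the CNT class comparison from -0.32 to 0.06. A total without mitochondrial, ribosomal and the 50 most abundant genes gave medians of 0.93 (all cells) and 1.07 (epithelial). Equal weight per cell, which used only cells with at least 5000 UMIs, left 3 receptors 2-fold lower in the CNT class comparison and 1 in that of 3CK. At 10 CPM the CNT class median was -1.15. The stricter filter on cells turned TIMP3 to 0.019. Stricter class boundaries gave a 3CK class median of 0.24 with 1 receptor 2-fold lower. With TTR-rich epithelial cells only, the epithelial median was 0.75, the CNT class median -1.11 with 0 receptors 2-fold higher, and the 3CK class median turned to -0.39 with 1 higher and 2 lower by 2-fold; CD40 turned to -0.30, TNFRSF10B to -0.47, TNFRSF12A to -0.24 and the TNFRSF11B difference to -0.18. With TTR-poor cells only, the epithelial median was 0.62 with 3 receptors 2-fold higher, the CNT class median -0.39 with 2 higher and 3 lower, and TNFRSF12A turned to 0.10. Without TYROBP-positive mesenchymal cells the 3CK class median was 0.20 with 1 receptor 2-fold lower; the mesenchymal ratio of TNFRSF10B turned to 0.070, TNFRSF12A in CNT to 0.047, and in 3CK LTBR to 0.15 and TNFRSF10B to -0.24, and the TNFRSF11B difference to -0.11. Of 765 gene ratios under alternatives, 577 stayed within the main interval, 176 moved out of it and 12 reversed. Of 120 differences between the classes, 87 stayed, 31 moved and 2 reversed. Of 220 shares of cells with a UMI, 53 stayed and 167 moved, under other thinning depths, no thinning or stricter class boundaries. No paired analysis was possible because each group is 1 library. Depth limits TNFRSF10A in mesenchyme, which rests on 94 and 39 UMIs.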
